A study of Homo sapiens with 4 samples.

Results

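The proteasome genes described here are the 45 protein-coding genes whose symbols begin with PSMA, PSMB, PSMC, PSMD or PSME, of 19974 protein-coding genes on chromosomes 1 to 22 and X in RefSeq. The rule used the symbol alone and no measured value, though the set was chosen with earlier results of these data known. The peaks counted for each gene lay within 5000 bp of it. Of the 45 members, 43 encode subunits, activators or assembly chaperones of the proteasome. The other two, PSMC3IP, a meiotic recombination cofactor, and PSME3IP1, a partner of the activator PSME3, carry such a symbol without being subunits. The study asked where RNA polymerase II (Pol II) lies on the genome of NKAP-depleted cells, and NKAP is a nuclear protein known for roles in splicing and transcriptional repression. U2OS, a human osteosarcoma cell line, received an siRNA against NKAP or a control siRNA with Lipofectamine RNAiMAX for 48 h, was fixed in 1% formaldehyde for 10 min and was profiled by chromatin immunoprecipitation sequencing (ChIP-seq) with a Pol II antibody. Each siRNA group had 1 ChIP library and 1 input library, and the inputs were not analysed here. With 1 library a group no comparison below has a replicate check or a test, and every interval covers counting error only.

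The knockdown list held 26387 peaks on these chromosomes and the control list 36345, and the sequencing depth of the knockdown library was estimated at 0.857 times that of the control. Peaks near the 45 genes numbered 94 in the knockdown list and 135 in the control list. The weakest peaks rested on 8 reads at the summit in each list, so a gene without a peak may still hold Pol II below that level. Of 8 mesenchymal and osteoblast marker genes, 4 (COL1A1, SPARC, VIM and FN1) were marked at a gene end in both lists, while COL1A2 and TWIST1 had none within 5000 bp. The labels also call the cells epithelial, and 1 of 5 epithelial markers, KRT18, had such a peak, while EPCAM, KRT5 and KRT14 had no peak in either list. Among 8 lymphocyte and macrophage markers 2 (CD68 and SPI1) had such a peak, and CD3E and LYZ were among those with no peak at all. Peaks covered 16.1 kb of the mesenchymal list and its flanks in the knockdown (2.97% of bases) and 42.2 kb in the control (7.81%). For the shorter lymphocyte and macrophage list they covered 12.1 kb (4.72%) and 21.2 kb (8.28%), a higher share in each library. Summit reads at the 4 mesenchymal genes summed to 168 in the knockdown and 346 in the control, and the part of such genes in the results was not tested.

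The 26S proteasome degrades proteins that carry ubiquitin chains. Its 20S core is a barrel of alpha rings, which gate the entry, and beta rings, which hold the proteolytic sites, while the 19S cap recognises the substrate, removes its ubiquitin and unfolds it with a ring of ATPases. Cells make these subunits together, largely under the transcription factors NFE2L1 and NFE2L2, which bind antioxidant response elements, and immune cells and cytokine-treated cells swap in the immunoproteasome subunits PSMB8, PSMB9 and PSMB10.

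RefSeq promoter sequences (GRCh38.p14) matched 40 of the 45 members, and 7 are printed because the results below turn on these genes: PSMC5 had the highest fold in both lists, PSMB2 the lowest knockdown-to-control ratio, PSME1 and PSMD10 a start peak in the control list only, PSMB9 no peak, and PSMD12 and PSME4 a response element and a start peak in both lists. Each line gives the 250 bases before the listed start, 5′ to 3′ on the strand of the gene. Capitals mark the antioxidant response element core TGACNNNGC and the CCAAT box, read on either strand (ATTGG is the reverse of CCAAT).
PSMC5 (chr17:63827181-63827430, plus strand): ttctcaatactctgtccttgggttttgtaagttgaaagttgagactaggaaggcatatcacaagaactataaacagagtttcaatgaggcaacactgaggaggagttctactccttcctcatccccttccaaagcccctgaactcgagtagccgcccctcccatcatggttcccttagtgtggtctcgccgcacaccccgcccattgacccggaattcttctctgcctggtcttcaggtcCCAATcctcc
PSMB2 (chr1:35641527-35641776, minus strand): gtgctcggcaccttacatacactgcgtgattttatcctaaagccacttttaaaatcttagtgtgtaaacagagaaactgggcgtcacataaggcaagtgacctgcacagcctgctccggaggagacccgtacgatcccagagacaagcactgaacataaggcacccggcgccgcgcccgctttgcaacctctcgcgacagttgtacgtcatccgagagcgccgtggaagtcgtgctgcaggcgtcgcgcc
PSME1 (chr14:24135944-24136193, plus strand): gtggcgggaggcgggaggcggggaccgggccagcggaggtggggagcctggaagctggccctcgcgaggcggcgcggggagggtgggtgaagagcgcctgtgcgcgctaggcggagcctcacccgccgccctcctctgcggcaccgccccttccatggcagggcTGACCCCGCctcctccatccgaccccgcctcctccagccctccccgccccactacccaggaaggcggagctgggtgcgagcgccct
PSMD10 (chrX:108091543-108091792, minus strand): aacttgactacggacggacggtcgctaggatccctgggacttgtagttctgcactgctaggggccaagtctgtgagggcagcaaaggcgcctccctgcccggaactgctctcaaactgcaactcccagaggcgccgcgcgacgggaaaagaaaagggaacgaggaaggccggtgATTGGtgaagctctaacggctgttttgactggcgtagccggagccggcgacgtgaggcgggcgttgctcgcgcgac
PSMB9 (chr6:32853942-32854191, plus strand): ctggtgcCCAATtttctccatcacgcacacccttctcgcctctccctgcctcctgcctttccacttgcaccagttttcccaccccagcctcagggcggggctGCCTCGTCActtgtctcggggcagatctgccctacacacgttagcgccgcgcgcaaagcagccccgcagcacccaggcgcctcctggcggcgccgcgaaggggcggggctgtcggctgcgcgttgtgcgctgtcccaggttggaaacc
PSMD12 (chr17:67366578-67366827, minus strand): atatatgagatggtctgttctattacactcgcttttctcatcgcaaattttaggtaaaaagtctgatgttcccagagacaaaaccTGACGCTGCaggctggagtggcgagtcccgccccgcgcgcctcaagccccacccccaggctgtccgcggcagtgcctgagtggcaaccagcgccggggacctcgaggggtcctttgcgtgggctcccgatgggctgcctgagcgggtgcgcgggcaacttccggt
PSME4 (chr2:53970994-53971243, minus strand): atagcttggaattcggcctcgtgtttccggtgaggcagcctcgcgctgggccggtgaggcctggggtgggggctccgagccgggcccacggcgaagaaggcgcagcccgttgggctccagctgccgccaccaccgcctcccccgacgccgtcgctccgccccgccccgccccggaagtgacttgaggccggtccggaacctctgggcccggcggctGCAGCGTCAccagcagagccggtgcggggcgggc

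No letters of PSMB2 are in capitals because its CCAAT box spans the listed start, from base −2 to base 2. Over the window of 250 bases before to 50 after the start, TGACNNNGC stood in 11 of the 40 promoters (27.5%, 95% Wilson interval 16.1 to 42.8), against 14.3% of all 15812 promoters. These were PSMB3, PSMB9, PSMC4, PSMD1, PSMD3, PSMD5, PSMD9, PSMD12, PSME1, PSME2 and PSME4, so they included no alpha ring gene among the matched promoters. The CCAAT box, the site of NF-Y, stood in 20 of the 40, against 36.3% of all promoters. The ETS site CCGGAAG stood in 13 (32.5%, against 14.2%), the SP1 site GGGCGG in 27 (67.5%, against 58.5%), and the TATA box TATAAA in 5 (12.5%, against 9.64%). The nuclear respiratory factor site GCATGCGC was found in 2 (5.00%, against 4.26%) and the E-box CACGTG in 4 (10.0%, against 8.87%). All motifs were read on both strands, a palindrome such as CACGTG counting once per promoter, and a match describes letters, not binding. In the 9 members with TGACNNNGC and a start peak in both lists, the median fold at the start was 11.6 in the knockdown and 13.0 in the control, and the median depth-scaled ratio was 0.861. In the 25 such members without it, the median fold was 12.6 and 16.3, and the median ratio 0.913. Split by the other motifs, the median ratio with and without the motif differed in either direction. It was lower with the E-box (0.756 and 0.918) and SP1 (0.896 and 1.03). It was higher with ETS (0.936 and 0.875), the TATA box (0.980 and 0.892), the CCAAT box (0.921 and 0.896) and the nuclear respiratory factor site (1.00 and 0.904). No split was tested.

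Pol II stood at nearly all housekeeping proteasome genes in both libraries. A peak lay within 5000 bp of 40 members in both lists (88.9%, against 64.7% of all genes), near PSMD10 in the control list only, and near PSMB8, PSMB9, PSMB11 and PSMA8 in neither. Control-only genes made up 7.43% of all genes with a peak within 5000 bp. A gene-end peak is one that comes within 1000 bp of an outer bound of a gene. Such a peak was found at 38 members in the knockdown (84.4%, 95% Wilson interval 71.2 to 92.3, against 56.5% of all genes) and at 39 in the control (86.7%, 73.8 to 93.7, against 59.9%), 37 of them in both. It was in the knockdown list only at PSMA1, where 2.38% of all genes with such a peak were knockdown-only, and in the control list only at PSMD10 and PSME1, where 7.92% of all were control-only. Besides the 4 genes without any nearby peak, PSMA6 also lacked one at its bounds in both libraries. At the listed start, known for 40 members, 34 members had a peak in both lists, none in the knockdown list only (1.95% of all genes with a start peak) and PSMD10 and PSME1 in the control list only (7.18% of all).

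**Figure D1:**
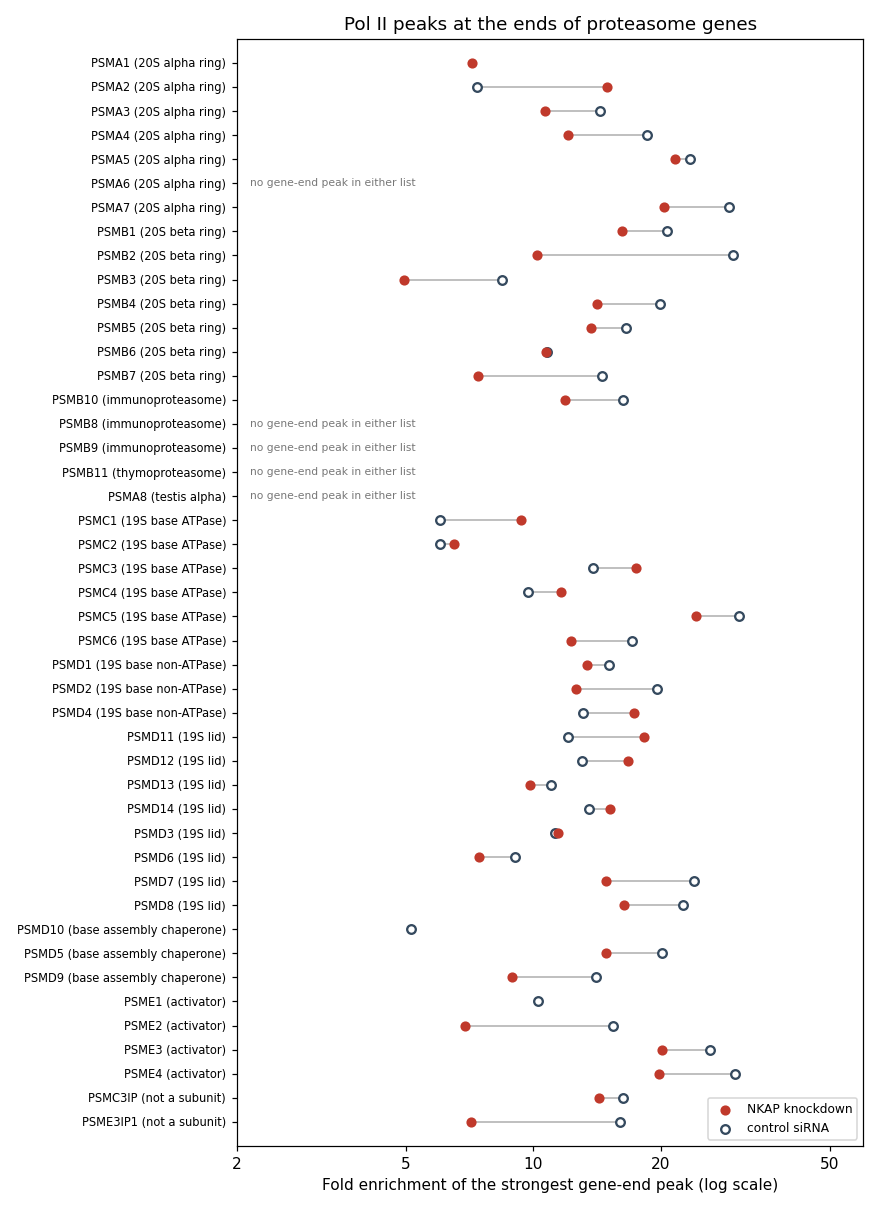
Fold enrichment of the strongest gene-end peak of each member (horizontal axis, log scale), filled points for NKAP knockdown and open points for control siRNA, with members grouped by role. The highest point of each list belongs to PSMC5 (24.2 in the knockdown and 30.6 in the control), and PSMB8, PSMB9, PSMB11, PSMA6 and PSMA8 have no point.

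The folds printed here are the authors' own summit enrichments over local background, and they rank peaks within a list only. Among members with a gene-end peak the median fold was 13.0 in the knockdown (range 4.96 to 24.2) and 15 in the control (5.14 to 30.6), against 11.3 and 13.5 over all genes with such a peak. The 5 highest folds lay at PSMC5, PSMA5, PSMA7, PSME3 and PSME4 in the knockdown list and at PSMC5, PSME4, PSMB2, PSMA7 and PSME3 in the control list. In the knockdown 25 of 38 members lay above the median fold of all genes with a gene-end peak, and in the control 24 of 39.

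To compare the libraries, the whole reads at each summit were recovered from the fold and the p-value, and their ratio was divided by the depth ratio. This depth-scaled ratio could be taken for the 36 members whose strongest gene-end peaks overlapped. It had a median of 0.917 (range 0.541 to 1.37), against 0.901 over 10501 genes, and 24 of the 36 members lay below 1 (66.7%, against 67.2% of all). The summed summit reads were 1353 in the knockdown and 1780 in the control, a ratio of 0.887 (95% exact interval 0.826 to 0.953), against 0.889 over all genes. Since the median gene itself lay at a log2 ratio of −0.15, the median member stood at 1.02 times the median of all genes, and ratios below are to be read against 0.901. More than 1.5-fold lower in the knockdown were 4 members (11.1%, against 9.28% of all genes), PSMB2, PSMB7, PSMC6 and PSMD9. None of the 36 was more than 1.5-fold higher (2.49% of all genes). The counting interval of the ratio lay wholly below 1 at 3 members, PSMB2, PSMC6 and PSMD9 (8.33%, against 5.90% of all genes), and wholly above 1 at none of the 36 (0.552% of all). It lay wholly below the all-gene median of 0.901 at 2 members, PSMB2 and PSMC6 (5.56%, against 2.22% of all genes), while that of PSMD9 took in this median.

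**Figure D2:**
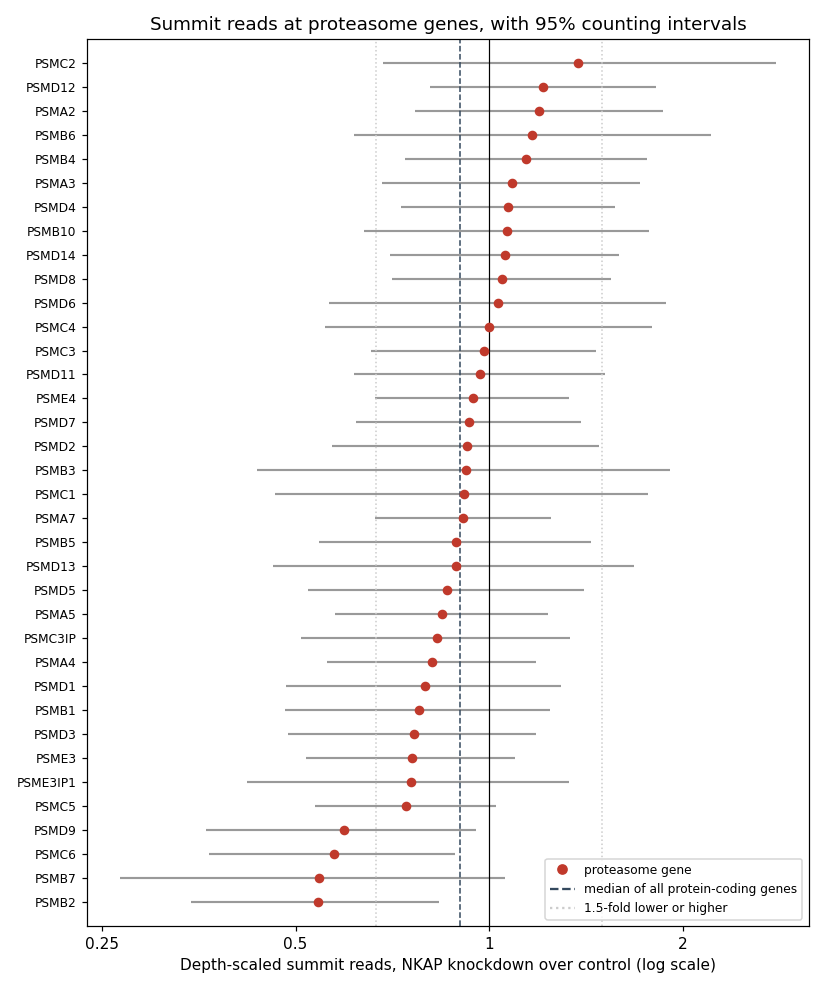
Depth-scaled summit reads of NKAP knockdown over control siRNA for the 36 members with overlapping peaks (horizontal axis, log scale), sorted by ratio, with 95% exact counting intervals as bars, the median of all protein-coding genes dashed and 1.5-fold lower and higher dotted. The members run from 0.541 at PSMB2 to 1.37 at PSMC2, and only the bars of PSMB2, PSMC6 and PSMD9 stay below 1.

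The alpha ring genes PSMA1 to PSMA7 form the gate of the core, and all 7 had peaks in both lists. PSMA5 (chromosome 1, 109399042 to 109426448) had 50 reads at its summit in the knockdown and 69 in the control, with folds of 21.6 and 23.4 and a ratio of 0.846 (95% exact interval 0.576 to 1.23). PSMA7 (chromosome 20, 62136733 to 62143394) had 75 reads in the knockdown and 96 in the control, with folds of 20.3 and 29.0 and a ratio of 0.912 (0.665 to 1.25). PSMA5 lay below the all-gene median of 0.901 and PSMA7 slightly above it, and both intervals took in 1. The PSMA7 peak also touched an end of SS18L1. PSMA2 (chromosome 7, 42916861 to 42932174) had nearly equal reads, 44 in the knockdown and 43 in the control, but folds of 14.9 and 7.36. The local background under its summit, 1.8 reads in the knockdown and 4.98 in the control, differed with the fold, and the ratio of reads was 1.19 (0.766 to 1.86). The peak of PSMA2 also touched the end of MRPL32, a mitochondrial ribosomal protein gene.

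At PSMA1 and PSMA6 the start and the outer bound of the gene lie far apart. The listed start of PSMA1 lies 15510 bp from the nearest bound of its gene (chromosome 11, 14504876 to 14643662). There a peak stood in both lists, with 34 reads in the knockdown and 47 in the control, folds of 10.7 and 18.5 and a ratio of 0.844 (0.527 to 1.34). The knockdown-only peak lay at the far bound, with 14 reads and a fold of 7.18, and it also touched an end of PDE3B. PSMA6 (chromosome 14, 35278558 to 35317493) had its listed start 13759 bp inside the gene, with 33 reads in the knockdown and 43 in the control and a ratio of 0.896. Of the 5 alpha ring members with overlapping gene-end peaks none passed 1.5-fold, and PSMA3 and PSMA4 had ratios of 1.08 and 0.815.

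The beta ring held the lowest ratio of all members, at PSMB2, and ratios above 1 at PSMB4 and PSMB6. PSMB2 (chromosome 1, 35599541 to 35641526), a non-catalytic beta subunit, had 32 reads at its summit in the knockdown and 69 in the control, with folds of 10.2 and 29.6 and a ratio of 0.541 (95% exact interval 0.344 to 0.834). Its start peak spanned 909 bp in the knockdown, with a separate peak of 357 bp beside it, and 2234 bp in the control. PSMB2 was thus lower and narrower in the knockdown, and its promoter is printed above.

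Of the catalytic subunits, PSMB5 (chymotrypsin-like site, chromosome 14, 23025851 to 23035220) had 32 reads in the knockdown and 42 in the control, with folds of 13.7 and 16.6 and a ratio of 0.889 (0.543 to 1.44). PSMB6 (caspase-like site, chromosome 17, 4796164 to 4798495) had 22 reads in each, folds of 10.7 and 10.7 and a ratio of 1.17 (0.616 to 2.21). PSMB7 (trypsin-like site, chromosome 9, 124353465 to 124415442) had 14 reads in the knockdown and 30 in the control, folds of 7.39 and 14.5 and a ratio of 0.545 (0.267 to 1.06). The catalytic genes therefore lay on both sides of the all-gene median. The lowest of them, PSMB7, had the fewest knockdown reads, while PSMB6 had the fewest control reads. The PSMB7 summits lay 498 bp apart, 526 bp from the nearest gene end in the knockdown and 28 bp in the control. The other beta ring members, PSMB1, PSMB3 and PSMB4, had ratios of 0.778, 0.921 and 1.1. Over the 7 beta ring genes the summed ratio was 0.812 (95% exact interval 0.672 to 0.980), with 192 reads in the knockdown and 276 in the control. That interval took in the summed ratio of all genes, 0.889.

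The tissue-restricted core genes carried little or no Pol II peak in either library. PSMB8 (chromosome 6, 32840717 to 32844679) and PSMB9 (chromosome 6, 32854192 to 32859851), the immunoproteasome subunits encoded in the MHC region, had no peak within 5000 bp. The nearest peak to PSMB8 lay 123549 bp away in the knockdown and 123398 bp away in the control, and the nearest to PSMB9 lay 108377 and 108226 bp away. Of the 70 protein-coding neighbours within 1 Mb of these genes, 19 had a gene-end peak in the knockdown and 27 in the control. PSMB11 (chromosome 14, 23042212 to 23044060), the subunit of cortical thymic epithelium, had its nearest peak 6806 bp away in the knockdown and 6746 bp away in the control. PSMA8 (chromosome 18, 26133869 to 26193355), the alpha subunit of male germ cells, had its nearest peak 32863 and 32949 bp away.

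PSMB10 (chromosome 16, 67934506 to 67936850) was the exception among the immunoproteasome genes. It had 32 reads at its strongest summit in the knockdown and 35 in the control, with folds of 11.9 and 16.3 and a ratio of 1.07 (0.640 to 1.77). Its summit lay 971 bp inside the gene in the knockdown and 982 bp inside in the control, the farthest from the start among all members with a start peak in both lists. Peaks covered 776 bp of the upstream zone of PSMB10 in the knockdown and 3114 bp in the control. In each list part of this cover lay at LCAT, by a peak of 245 bp in the knockdown, and part at peaks that touched no other gene end.

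The 19S base holds the ATPases PSMC1 to PSMC6, which unfold the substrate, and these included the strongest member of each list. PSMC5 (chromosome 17, 63827431 to 63832019) had 65 reads in the knockdown and 102 in the control, with folds of 24.2 and 30.6 and a ratio of 0.744 (95% exact interval 0.536 to 1.02). Its peak ran across the end of FTSJ3, whose own Pol II cannot be told apart from that of PSMC5. PSMC6 (chromosome 14, 52707200 to 52728590) had 33 reads in the knockdown and 67 in the control, with folds of 12.3 and 17.1 and a ratio of 0.575 (0.367 to 0.885). PSMC5 was below the all-gene median with an interval that took in 1, and PSMC6 had its whole interval below 1. PSMC2 (chromosome 7, 103347524 to 103369395) had the highest ratio of all members, 1.37 (0.683 to 2.79), from 20 reads in the knockdown and 17 in the control, and shared its peak with PMPCB. PSMC1, PSMC3 and PSMC4 had ratios of 0.913, 0.983 and 1.00. Over the 6 ATPases the summed ratio was 0.826 (0.688 to 0.989), an interval that took in the 0.889 of all genes.

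The other base genes had ratios between 0.796 and 1.07. PSMD4, a ubiquitin receptor (chromosome 1, 151254734 to 151267479), had 55 reads in the knockdown and 60 in the control, with folds of 17.3 and 13.1 and a ratio of 1.07 (0.728 to 1.57). PSMD1 and PSMD2, the large scaffold subunits, had ratios of 0.796 and 0.923. Among the 3 genes the summit reads were higher per depth in the knockdown at PSMD4 only, and all 3 intervals took in 1.

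The 8 lid genes lay between 0.764 (PSMD3) and 1.21 (PSMD12), with a summed ratio of 0.989 (95% exact interval 0.849 to 1.15) and no member past 1.5-fold. PSMD14, the deubiquitinating enzyme of the lid (chromosome 2, 161308425 to 161411717), had 48 reads in the knockdown and 53 in the control, with folds of 15.1 and 13.5 and a ratio of 1.06 (0.70 to 1.59). PSMD12 (chromosome 17, 67337916 to 67366577) had 53 reads in the knockdown and 51 in the control, with folds of 16.7 and 13.0 and a ratio of 1.21 (0.810 to 1.82). Both were slightly higher per depth in the knockdown, within counting error. The lid is the subcomplex whose summed reads lay nearest to equal per depth, while the intervals of the lid, the beta ring and the ATPases overlapped, so that no difference between subcomplexes is shown.

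PSMD5, PSMD9 and PSMD10 are chaperones that help to assemble the base and leave the finished particle. PSMD9 (chromosome 12, 121888790 to 121918297) had 28 reads in the knockdown and 55 in the control, with folds of 8.90 and 14 and a ratio of 0.594 (0.363 to 0.953), at a peak that also touched HPD. PSMD5 had 31 reads in the knockdown and 42 in the control, a ratio of 0.861 (0.524 to 1.4). PSMD10 (gankyrin, chromosome X, 108084207 to 108091542) had a peak in the control list only, 358 bp wide, with 10 reads and a fold of 5.14 at its summit 73 bp inside the gene. All 3 were thus lower or not listed in the knockdown, and the PSMD10 peak was close to the lowest count that either list holds. None of the 14 neighbours of PSMD10 within 1 Mb had a gene-end peak in the knockdown, and 1 had one in the control.

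The activators open the gate of the core without the 19S cap. PSME3 (PA28 gamma, chromosome 17, 42833397 to 42843760) had 50 reads in the knockdown and 77 in the control, with folds of 20.1 and 26.1 and a ratio of 0.758 (95% exact interval 0.520 to 1.1). PSME4 (PA200, chromosome 2, 53864069 to 53970993) had 63 reads in the knockdown and 78 in the control, with folds of 19.8 and 29.9 and a ratio of 0.943 (0.665 to 1.33), at a peak shared with ACYP2. Both stood among the 5 highest folds of each list, and both intervals took in 1.

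PSME1 and PSME2, whose proteins form the interferon-inducible PA28 ring, lie near each other on chromosome 14 and their strongest peaks differed in place. PSME1 (24136194 to 24138962) had no gene-end peak in the knockdown, while in the control its start peak was 1580 bp wide, with 21 reads and a fold of 10.3. At the start of PSME2 (24143365 to 24146610), in a window shared with RNF31, the strongest peak had 13 reads and a fold of 6.90 in the knockdown, and 20 reads and a fold of 9.81 in the control. The control list held another peak there, with 14 reads and a fold of 7.0, and the knockdown summit lay inside that one. Between the genes, at EMC9, a peak of 1303 bp with 24 reads and a fold of 7.74 stood in the knockdown, and one of 1920 bp with 32 reads and a fold of 15.4 in the control. In reads not scaled by depth, the strongest peak at each of these sites was thus lower or not listed in the knockdown. The PSME2 summits of 13 and 14 reads were nearly equal on that count. Scaled by depth, the strongest start peaks of PSME2 had a ratio of 0.759 (0.347 to 1.60). That counting interval is too wide to show a direction at the PSME2 start. The strongest gene-end peaks of PSME2 did not overlap between the lists, so it is not among the 36 ratios.

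The members that are not subunits lay within the range of the others. PSMC3IP had a ratio of 0.830 and PSME3IP1 one of 0.755, both at peaks that touched another gene. In all, 11 of the 36 member peaks (30.6%, against 35.7% of all genes) touched an end of a neighbouring gene. The median ratio was 0.830 in these 11 and 0.93 in the other 25, against 0.898 and 0.902 in the same split of all genes.

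Peaks were narrower in the knockdown, as they were over the genome. The strongest gene-end peak had a median width of 1164 bp in the knockdown and 1647 bp in the control, and 32 of the 36 overlapping peaks were narrower in the knockdown (88.9%, against 85.2% of all genes), with a median width ratio of 0.749, against 0.733. The summits moved little, by a median of 68.5 bp (95 bp over all genes), and 28 of 36 stayed within 200 bp (77.8%, against 76.2% of all genes). Around the listed start the median summit lay 43.5 bp inside the gene in the knockdown (n = 34 genes) and 15.5 bp inside in the control (n = 36), against 35.0 and 36.0 bp over all genes.

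**Figure D3:**
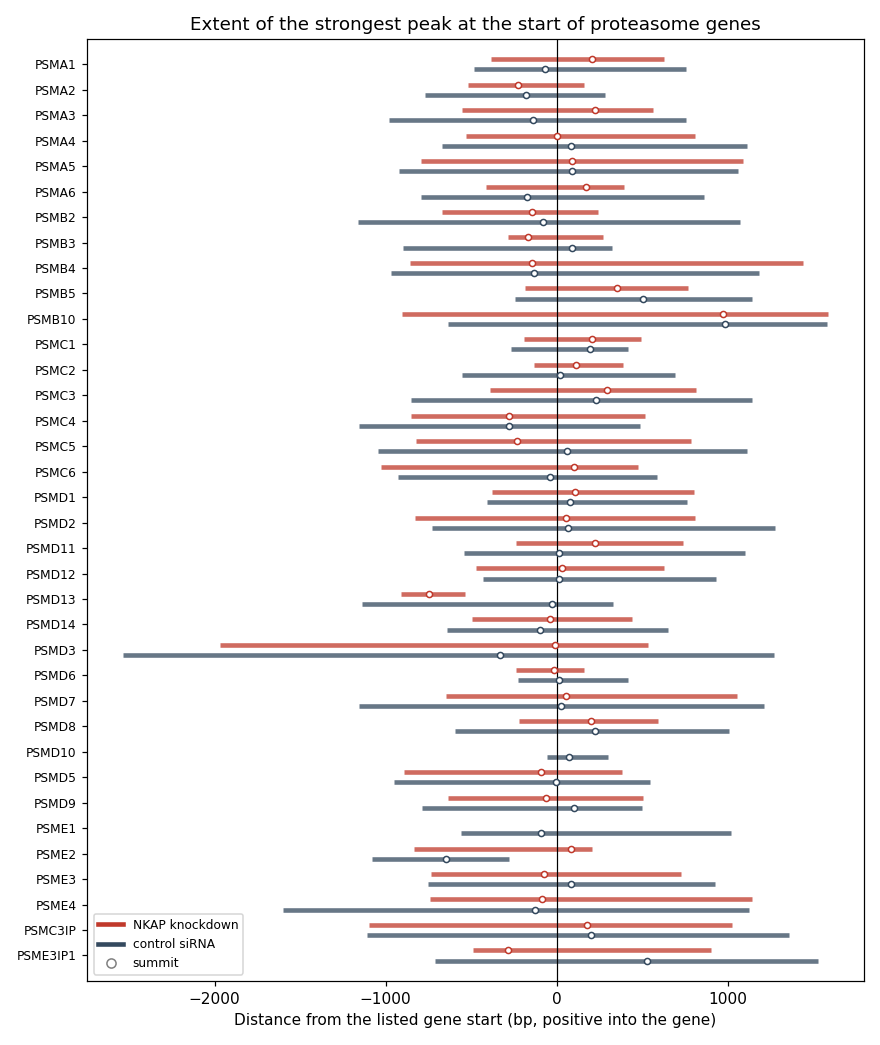
Extent of the strongest start peak of each member (bars) and its summit (circles) as the distance from the listed start in bp, NKAP knockdown above control siRNA for each gene. Control bars are mostly the longer ones, as at PSMB2 (909 bp in the knockdown and 2234 bp in the control), PSMB10 has both summits far inside the gene (971 and 982 bp), and PSMD10 and PSME1 have a control bar only.

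The length under peaks showed the clearest difference, shared with the genome. Peaks covered 82.1 kb of the members and their flanks in the knockdown and 136.5 kb in the control, a ratio of 0.602, against 0.623 over all genes. The mean fold of these peaks was 9.64 in the knockdown and 9.65 in the control, over different sets of peaks. Of 41 members with any peak, 39 had less covered length in the knockdown (95.1%, against 86.1% of all genes). PSMA5 had more, 3873 bp in the knockdown and 3546 bp in the control, and PSMD1 had 2107 bp in each. The 3 largest losses were at PSMC5 (2625 bp in the knockdown and 7849 bp in the control), PSMA7 (5584 and 9630 bp) and PSMD11 (3772 and 7222 bp). At PSMC5 the control list held 9 peaks, of which 3 lay upstream and 4 at or past the far end, while the knockdown list held 4. Lower depth and less Pol II both shorten the called length and cannot be told apart in these lists.

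By position, the start zone kept most of its cover. Within 1000 bp of the start of the 40 members, peaks covered 51.9% of bases in the knockdown and 68.0% in the control, a ratio of 0.764, against 0.779 over all genes (31.2% and 40.1%). In the gene body, from 1000 bp inside to the far end, cover was 0.560% in the knockdown and 1.83% in the control, a ratio of 0.306, against 0.499 over all genes. Upstream, from 5000 to 1000 bp before the start, it was 3.11% and 8.14%, a ratio of 0.382, against 0.544. Over the 5000 bp past the end it was 9.82% and 17.6%, a ratio of 0.557, against 0.593. The body cover rested on few peaks, with 8 summits in 10 covered members in the knockdown and 23 summits in 23 covered members in the control. PSMA3 held the most control body cover, 3580 bp with 7 of the 23 summits, against 389 bp and 1 summit in the knockdown. Part of the body difference thus came from this gene.

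**Figure D4:**
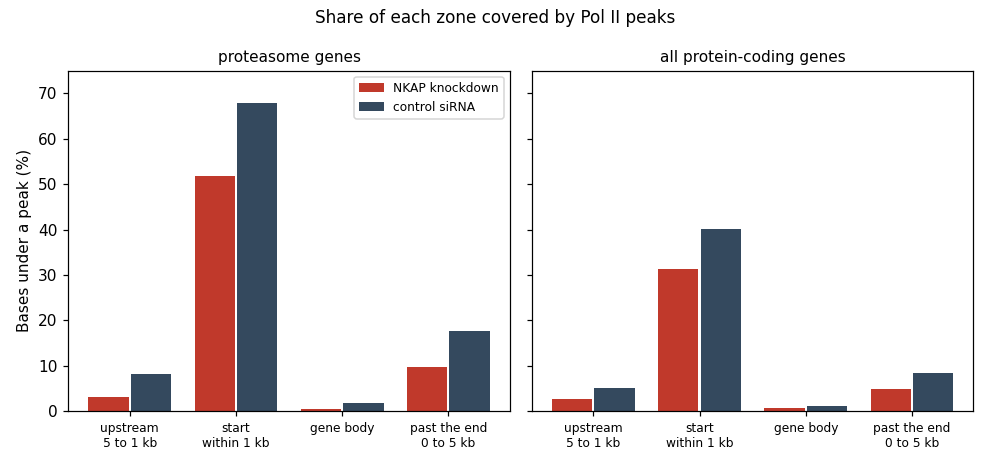
Percent of bases under a Pol II peak in 4 zones around the listed start and end (upstream, start, body, past the end), with NKAP knockdown bars left of control siRNA bars, for the 40 members with a listed start and for all genes with one. The start zone is highest in both lists (51.9% in the knockdown and 68.0% in the control for the members), and each zone is lower in the knockdown.

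Other genes of the pathway were also marked by Pol II in both libraries. Of 35 genes for assembly factors, associated enzymes, transcriptional regulators, ubiquitin and shuttle proteins, 33 carried a gene-end peak in each list (94.3%). Over all genes the share was 56.5% in the knockdown and 59.9% in the control. None of the 35 had one in 1 list only (2.38% knockdown-only and 7.92% control-only over all genes with such a peak). Their median ratio over 32 genes was 0.898 (range 0.583 to 1.43), against 0.901 over all genes. More than 1.5-fold lower were 2 of the 32 (9.28% of all genes), and none was more than 1.5-fold higher (2.49% of all). NFE2L1, the transcription factor that raises proteasome gene expression, had 64 reads in the knockdown and 89 in the control, with folds of 27.5 and 30.1 and a ratio of 0.839 (95% exact interval 0.599 to 1.17). DDI2, the protease that releases NFE2L1, had a ratio of 0.786, NGLY1, which deglycosylates it, 0.820, and NFE2L2 1.01. Of these 4 regulators 3 were below the all-gene median and each interval took in 1.

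Past 1.5-fold lower in the knockdown were PSMG1, a chaperone of alpha ring assembly, with 15 reads in the knockdown and 30 in the control and a ratio of 0.583 (0.292 to 1.12), and UBQLN2, a ubiquitin shuttle, with 25 and 44 reads and a ratio of 0.663 (0.389 to 1.11). UBB, a polyubiquitin gene, had a ratio of 1.02, and UBA1, the main ubiquitin-activating enzyme, had the highest ratio of the list, 1.43 (0.785 to 2.64), from 27 reads in the knockdown and 22 in the control. MIDN, which carries proteins to the proteasome without ubiquitin, was the gene of this list with an interval wholly below 1, at 0.679 (0.491 to 0.932), from 64 reads in the knockdown and 110 in the control. Over all genes 5.90% had such an interval.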

How the data were processed

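Pol II ChIP-seq peak lists of 2 libraries, NKAP knockdown and control siRNA, were analysed, each called by the authors on its own library. The submitters' processing notes name hg38 as the build, MACS2 2.1.0, Bowtie 1.1.2, Trimmomatic 0.33 and bcl2fastq 2.17, with settings not given in the sources used here. The authors' deposited columns hold a score per peak, the fold enrichment of its summit (a ratio to local background) and the −log10 of its p-value and q-value. The lowest −log10 q-value was 3.02 in the knockdown list and 3.01 in the control list.

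Fold and p-value together gave the reads at each summit. Within 0.01 of the deposited −log10 p, whole reads came out for 99.99% of knockdown peaks and 100% of control peaks, on all sequences of each list. The median summit held 19 reads in the knockdown list and 18 in the control list. The library that served the caller as background is likewise not given. Depth was estimated from the caller's background, so ratios carry its error. Peaks overlapped when they shared at least 1 bp, and for a gene the peak of lowest p-value was taken.

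Gene bounds came from the RefSeq table of the same build. Listed starts came from the RefSeq promoter table, which matched 40 members and not PSMA7, PSMB1, PSMB6, PSMB7 and PSMD4. Ratio intervals are exact conditional binomial (Clopper-Pearson) and shares have Wilson intervals, both at 95%. PCR reads without molecular identifiers are not independent molecules. Python 3.11.15, numpy 2.4.6, pandas 2.3.3, scipy 1.17.1 and matplotlib 3.10.9 were used, and the recovery of reads and ratios was tested on simulated data.

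Full values are given for the 5 highest folds of each list, members with a gene-end peak in 1 list only or no peak, the 3 highest and 3 lowest ratios, the 3 largest changes of covered length each way, and the catalytic, tissue-restricted, ubiquitin-handling and activator genes. PSMD9 and the other named members were added after their values were seen. Members and lists were chosen with earlier results of these data known.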

Additional observations from a re-analysis of the deposited data

How the results depend on the processing

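Of 42 recalculations, 32 were counted as leaving the result the same, 9 as moving it and 1 as turning it round. These labels do not measure a spread between libraries and are uneven. A covered-length ratio of 0.604 against 0.602 counted as moved, while 36 genes with less covered length against 39 counted as the same. The control-only count of gene-end peaks was 1 with windows of 2000 bp (PSMD10) and 1 with equal numbers of the strongest peaks (PSME1), against 2. With windows at the listed start, chosen after the data were seen, the knockdown-only count was 0. The knockdown-only PSMA1 peak lies at the upstream bound of the gene, far from the listed start. The median ratio over members was 0.787 with the authors' fold in place of reads. Centred on the median of all genes it was 1.02, on the other side of 1. The member median of 0.917 lay slightly above the 0.901 of all genes, and both lay below 1 before centring. The covered-length ratio was 0.667 with equal numbers of peaks, 0.609 at a −log10 q of at least 5, 0.586 without flanks and 0.604 without PSMC3IP and PSME3IP1, and stayed below 1 in these 4. The response element in its specific letters TGACTCAGC stood in 0 members (0.462% of all promoters). No paired analysis was possible because each group had 1 library, and none could be left out. Depth limits the weakest calls, which rest on 8 reads.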

Other observations

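Past the ends of some members, peaks also touched the ends of other genes. PSMC3, an ATPase of the base, had 3724 bp of the 5000 bp past its end covered in the knockdown and 4596 bp in the control, and the strongest peak there touched SLC39A13, with 34 reads in the knockdown and 36 in the control. Past the end of PSMD11, a lid subunit, the strongest peak touched CDK5R1, a neuronal kinase activator, with 47 reads and a fold of 18.4 in the knockdown and 60 reads and a fold of 26.5 in the control. At the gene's own start PSMD11 had 39 reads in the knockdown and 47 in the control, so the peak past its end was the stronger one in both lists. PSMD8, another lid subunit, had 3286 bp past its end covered in the knockdown and 3829 bp in the control, in part at peaks that touched GGN and SPRED3.

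PSMB3, a beta ring subunit, stood beside a stronger neighbour. Peaks at PCGF2, which encodes a Polycomb group protein, lay in its upstream zone, with up to 20 reads in the knockdown and 31 in the control, while the start of PSMB3 had 15 reads in the knockdown and 19 in the control.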
